A study of Mus musculus with 15 samples.

Results

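Ehhadh, Vnn1, Acsm3, Hao2 and Abcd2 are genes of fatty acid handling in liver. They were grouped as genes linked to the peroxisome or to the nuclear receptor PPAR-alpha. The gene lists used further on give such a link for all but Acsm3, which stands only under fatty acid activation and coenzyme A. The members were set by name, with earlier results of these data known, and make up 5 of the 2545 genes (rows) in the deposited liver RNA-seq table. All 5 were found in it, each on a single row. The peroxisome shortens fatty acids that are too long for the mitochondrion, while mitochondria burn medium and long chains after these have been joined to coenzyme A. PPAR-alpha is the fatty acid sensing receptor of the hepatocyte, which binds DNA together with RXR and drives many genes of peroxisomal and mitochondrial oxidation, above all in fasting. Estrogens and drugs that bind estrogen receptors in some tissues as agonists and in others as antagonists are known to alter lipid storage in the liver of ovariectomized animals.

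The study asked how a pairing of conjugated estrogens (CE) with bazedoxifene (BZA), a selective estrogen receptor modulator, acts on the liver after loss of ovarian estrogen. Liver RNA was sequenced from 15 female C57BL/6 mice (C57BL/6J in the study's methods) in 5 groups with 3 mice each. All 15 mice carried the same background, which was a high-fat diet with 45% of calories from fat from 8 weeks of age and ovariectomy at 10 weeks of age, followed by 6 weeks of treatment. The groups were Veh, a mixture of DMSO, ethanol and saline, 17-beta estradiol (E2), CE, BZA and CE+BZA. The stated doses were 5 ug per kg per day for E2, 2.5 mg per kg per day for CE and 3 mg per kg per day for BZA. Those within CE+BZA were not given separately in the sources used here. E2 came from release pellets, whose drug content the methods also state, and the stated E2 dose was not checked against that content. CE was loaded into osmotic minipumps. Mice without ovariectomy were not analysed here, so Veh is the ovariectomized, estrogen-deprived state, and the doses of the treatments differ. Each value is log2 expression from which the median of the gene had been taken away, so that 0 is the middle one of the 15 mice, 1 is 2-fold above it, and levels cannot be compared between genes.

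The table is a selection. All 2545 genes in it had a mean difference from Veh of over 1 on the log2 scale in at least 1 treatment, the 5 members included, so that some difference from Veh was fixed by being listed. The counts of the members are therefore read against the same counts over the table. In 1045 genes (41.1%), at least 2 mice shared the lowest value, a mark of values raised to a floor, and 0 of the 5 members did. The defining markers of hepatocytes could hardly be checked, as 2 of 12 (Tat and Pck1) were listed. The liver BZA 3 carried the most pancreatic and fat cell transcripts, with a mean of 6.19 over 7 of 9 acinar markers (-0.16 to 0.66 in the other 14 mice). Its mean was 4.28 over 6 of 12 adipocyte markers (-0.57 to 1.01 in the others). BZA 1 carried some as well, with Ctrb1 at 4.64, Retn at 1.47 and Adipoq at 0.89, while its other acinar markers and Lep were at 0. The number of reads per mouse is not known from these values.

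The 5 genes lie on different chromosomes of GRCm38, by GENCODE annotation. Ehhadh, with 7 exons, is at chr16:21761287-21787807 on the minus strand, Vnn1 at chr10:23894688-23905343 on the plus strand, Acsm3 at chr7:119760923-119787513 on the plus strand, Hao2 at chr3:98874521-98893239 on the minus strand, and Abcd2 at chr15:91145871-91191799 on the minus strand. A small nuclear RNA gene, Gm24898, lies within Ehhadh, and Eri2 overlaps most of Acsm3, both on the opposite strand. Whether counting used strand is not stated, so reads of those pairs may not be told apart. Stretches of 50 bases shared with other genes made up 0% of the transcript sequence of Ehhadh, Vnn1, Acsm3 and Hao2 and 0.441% of that of Abcd2.

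The promoters of Hao2, Acsm3 and Ehhadh, the members for which a promoter sequence was at hand, are shown. The letters upstream of each start can so be read beside the values. They come from RefSeq (build GRCm38.p6), run 5′ to 3′ on the strand of the gene and stop before the transcript. Capitals mark matches to the motifs searched.

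Hao2: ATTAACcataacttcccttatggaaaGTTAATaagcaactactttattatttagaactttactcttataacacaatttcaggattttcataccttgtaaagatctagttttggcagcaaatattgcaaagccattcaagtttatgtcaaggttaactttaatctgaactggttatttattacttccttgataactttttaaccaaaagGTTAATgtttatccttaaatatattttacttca
Acsm3: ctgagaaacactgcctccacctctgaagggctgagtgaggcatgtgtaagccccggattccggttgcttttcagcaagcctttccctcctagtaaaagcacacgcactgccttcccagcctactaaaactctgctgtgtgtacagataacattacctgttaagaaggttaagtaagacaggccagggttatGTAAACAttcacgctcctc
Ehhadh: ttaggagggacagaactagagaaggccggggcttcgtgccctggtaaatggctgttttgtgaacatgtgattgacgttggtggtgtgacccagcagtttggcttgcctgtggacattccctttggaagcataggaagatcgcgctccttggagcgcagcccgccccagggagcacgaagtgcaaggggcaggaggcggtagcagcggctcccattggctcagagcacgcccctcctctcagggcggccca

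The Hao2 stretch is chr3:98893240-98893480 on the minus strand, that of Acsm3 chr7:119760673-119760882 on the plus strand and that of Ehhadh chr16:21787835-21788084 on the minus strand. Their GC content was 27.0% for Hao2, 49.0% for Acsm3 and 60.4% for Ehhadh. Windows of 300 bases around the start were searched on both strands for 5 motifs. The PPAR and RXR direct repeat, AGGNCA given again after 1 base of any kind, was in 0.381% of 32851 promoters. The nuclear receptor half-site AGGTCA, which overlaps it, was in 16.3%, and the estrogen response element, GGTCA and TGACC with 3 bases between them, in 0.0700%. These letters were not in the windows of the 3 genes. The HNF1 half-site (GTTAAT), held by 7.10% of all promoters, occurred 3 times in that of Hao2, at -250, -224 and -42 from the start. The forkhead letters TGTTTAC, held by 3.65%, occurred once in that of Acsm3. A match is only a run of letters, and a motif missing from so short a window may lie elsewhere. For Vnn1 and Abcd2 no promoter sequence was at hand.

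Across the 4 treatments, all 5 genes were lower on average than in Veh, in each treatment. This held for 28.9% of all genes in the table. Ehhadh, Vnn1 and Acsm3 were 1.68- to 2.43-fold lower on average by treatment. They were below every Veh mouse in all 12 treated mice, as were 2.32% of all genes in the table. Hao2 was lower by the widest margin and varied most from mouse to mouse. Abcd2 was over 2-fold lower under CE+BZA alone among the treatments. With limma, none of these differences passed the thresholds of the study (over 2-fold and FDR under 0.05). The median log2 difference of the 5 members was -0.94 for E2, -1.03 for CE, -0.96 for BZA and -1.28 for CE+BZA, where the median over all genes in the table was 0, 0.06, 0.11 and 0.08. The medians of the mean of the 4 treatments were -1.07 and 0.29.

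Markers of other cells moved with some groups, and their part in the members' values was not tested. The 6 adipocyte markers had a mean of 0.86 to 1.01 in Veh, against -0.38 to -0.14 in E2, -0.57 to 0.12 in CE and -0.17 to 0.16 in CE+BZA. In BZA it was -0.22, 0.65 and, in BZA 3, 4.28. The mean in Veh came mostly from Cfd (3.15 to 4.89) and Car3 (0.76 to 1.18). Retn was at 0 to 0.99 in Veh, and Adipoq, Lep and Plin1 were at 0 in every Veh mouse. Leukocyte and macrophage markers (5 of 15 listed) had a mean of -1.01 to 0.03 in Veh, -0.99 to 0.69 in E2, 0.49 to 2.84 in CE, -0.25 to 0.62 in BZA and -0.95 to 0.96 in CE+BZA. Tat and Pck1, the hepatocyte markers present, had a mean of -0.93 to -0.20 in Veh. It was -0.51 to 0.24 in E2 and -0.41 to 0.26 in CE, which overlapped Veh. In BZA it was -0.11 to 0.95 and in CE+BZA 0.55 to 1.47, both above Veh, where the members were lower on average.

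**Figure D1:**
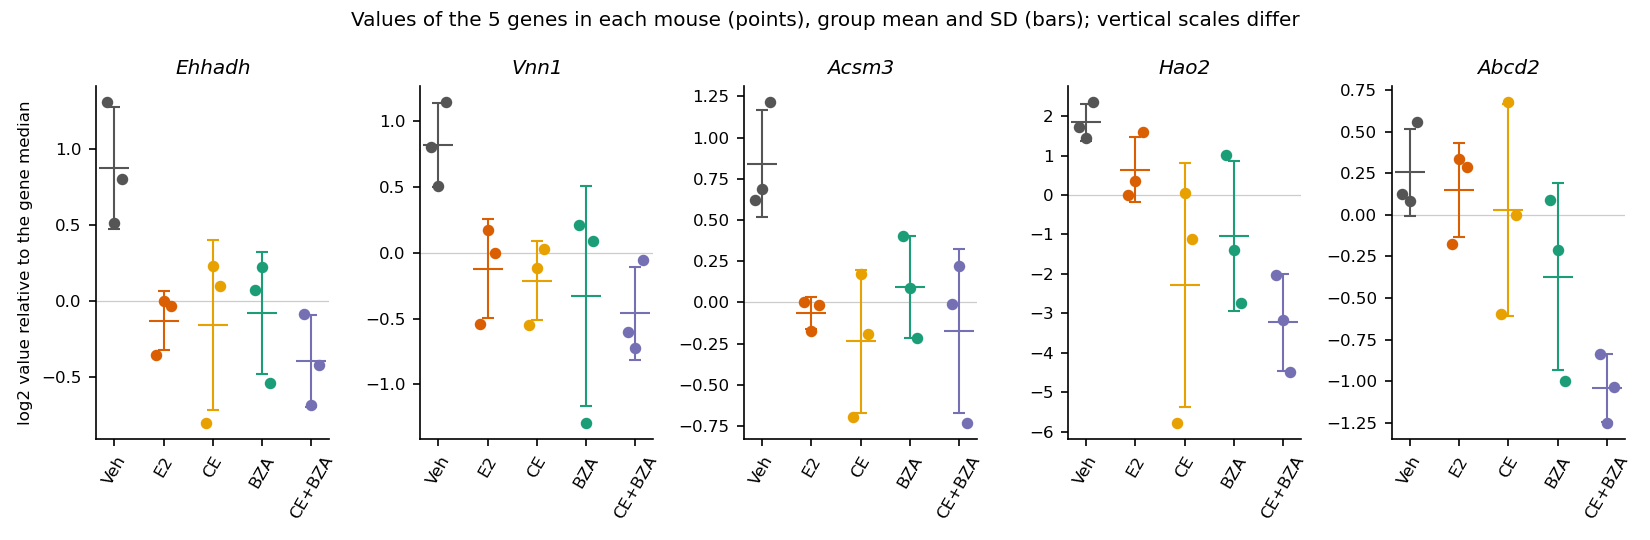
Log2 value relative to the gene median (vertical axis, own scale in each panel) of the 5 genes in the 15 mice by group (horizontal axis), where points are mice and bars are the group mean with SD (3 mice a group). The 12 treated mice lie below the 3 Veh mice for Ehhadh, Vnn1 and Acsm3 (2.32% of all genes), 11 of 12 do for Hao2 and 8 of 12 for Abcd2.

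Ehhadh encodes the peroxisomal bifunctional enzyme, which carries out the hydration and dehydrogenation steps of peroxisomal beta-oxidation and is a classic PPAR-alpha target. Its log2 values in Veh mice 1, 4 and 7 were 1.31, 0.52 and 0.80. They were -0.35, 0 and -0.03 in E2 mice 3, 4 and 5, and -0.80, 0.23 and 0.10 in CE mice 3, 6 and 7. BZA mice 1, 3 and 4 gave 0.08, 0.22 and -0.54, and CE+BZA mice 1, 2 and 3 gave -0.08, -0.69 and -0.42. The lowest Veh mouse was above the highest treated mouse, CE 6, and no group overlapped Veh (2.32% of all genes). The difference from Veh was -1.005 ± 0.46 (SE) for E2, -1.03 for CE, -0.96 for BZA and -1.27 for CE+BZA, with FDR from 0.205 to 0.322 (limma). The mean of the 4 treatments was lower by a factor of 2.09, a log2 difference of -1.07 with a 95% interval from -1.84 to -0.29 (FDR = 0.194, limma). In bulk liver, fewer cells that express a gene and less of its RNA per cell cannot be told apart.

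Hao2 encodes hydroxyacid oxidase 2, a flavin enzyme of the peroxisome that oxidizes long-chain hydroxy acids. Veh mice 1, 4 and 7 had log2 values of 1.73, 1.44 and 2.36, and E2 mice 3, 4 and 5 had 0, 0.35 and 1.59. The CE mice 3, 6 and 7 stood at -5.78, 0.06 and -1.12. BZA mice 1, 3 and 4 stood at 1.003, -1.38 and -2.73, and CE+BZA mice 1, 2 and 3 at -2.02, -3.18 and -4.48. Only E2 5, which exceeded Veh 4, overlapped the Veh mice, and the 3 CE+BZA mice were below all E2 mice and all Veh mice. How many genes of the table separated CE+BZA from E2 in this way was not counted. The spread within groups was 1.76 (pooled SD), wider than in 98.3% of genes, and the SE of each difference was 1.18.

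The mean Hao2 difference from Veh was -1.20 for E2 (FDR = 0.607), -4.13 for CE (FDR = 0.159), -2.88 for BZA (FDR = 0.283) and -5.07 for CE+BZA (FDR = 0.0758), all by limma. The last was 33.6-fold lower on the linear scale, with a log2 interval from -7.57 to -2.58. Leaving out single mice moved the CE, BZA and CE+BZA differences by over 1.5-fold, and the E2 difference by less. Without CE 3 the CE difference was -2.38 and without CE 6 it was -5.29. The BZA difference was -3.90 without BZA 1 and -2.03 without BZA 4, and the CE+BZA difference was -5.67 without CE+BZA 1 and -4.45 without CE+BZA 3. The CE+BZA difference, itself the same at -5.07, passed (FDR = 0.0389, limma) when CE 3 was left out of the shared estimate of spread.

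Abcd2 encodes an ATP-binding cassette transporter that brings very long-chain acyl-CoA into the peroxisome. Its values were 0.13, 0.08 and 0.56 in Veh mice 1, 4 and 7, and -0.18, 0.34 and 0.29 in E2 mice 3, 4 and 5. In CE mice 3, 6 and 7 they were -0.59, 0.68 and 0, and in BZA mice 1, 3 and 4 they were 0.09, -0.21 and -0.999. The CE+BZA mice 1, 2 and 3 had -0.84, -1.25 and -1.04. The highest value of all was a CE mouse, and E2, CE and BZA overlapped Veh. The 3 CE+BZA mice lay below every Veh mouse and every E2 and CE mouse. The share of all genes with such a separation from E2 and CE was not counted. The difference for CE+BZA was -1.30 ± 0.48 (FDR = 0.205, limma), 2.46-fold lower. For E2 it was -0.11 (95% interval -1.11 to 0.90), for CE -0.23 (-1.23 to 0.78) and for BZA -0.63 (-1.63 to 0.38), so that 2-fold lower values remain within each of these intervals. The E2 difference turned to 0.056 without E2 3 and 0.044 without Veh 7, and the CE difference to 0.084 without CE 3.

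Acsm3 encodes a mitochondrial medium-chain acyl-CoA synthetase, which couples medium-chain fatty acids to coenzyme A. Veh mice 1, 4 and 7 had 0.62, 0.69 and 1.22, and E2 mice 3, 4 and 5 had 0, -0.17 and -0.02. CE mice 3, 6 and 7 had -0.69, 0.17 and -0.19. BZA mice 1, 3 and 4 had 0.40, 0.09 and -0.22, and CE+BZA mice 1, 2 and 3 had -0.01, 0.22 and -0.73. The 12 treated mice were below the 3 Veh mice (2.32% of all genes), and the spread within groups, 0.36, was narrower than in all but 2.55% of genes. The difference was -0.90 ± 0.45 (SE) for E2, -1.08 for CE, -0.75 for BZA and -1.02 for CE+BZA, with FDR from 0.230 to 0.336 (limma).

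Vnn1 encodes pantetheinase, an enzyme anchored to the outer cell surface that splits pantetheine, a breakdown product of coenzyme A, into pantothenate and cysteamine. It is a sensitive hepatic target of PPAR-alpha. Its values were 0.80, 0.51 and 1.14 in Veh mice 1, 4 and 7, and -0.54, 0.17 and 0 in E2 mice 3, 4 and 5. They were -0.55, -0.12 and 0.03 in CE mice 3, 6 and 7. BZA mice 1, 3 and 4 had 0.21, -1.29 and 0.09, and CE+BZA mice 1, 2 and 3 had -0.60, -0.72 and -0.06. No treated mouse reached the lowest Veh mouse (2.32% of all genes). The lowest value of all was that of BZA 3, the liver with the most pancreatic and fat cell transcripts. The difference was -0.94 ± 0.49 (SE) for E2, -1.03 for CE, -1.15 for BZA and -1.28 for CE+BZA, with FDR from 0.211 to 0.349 (limma), and that for BZA was -0.67 without BZA 3. The part of those transcripts in the Vnn1 value was not tested.

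**Figure D2:**
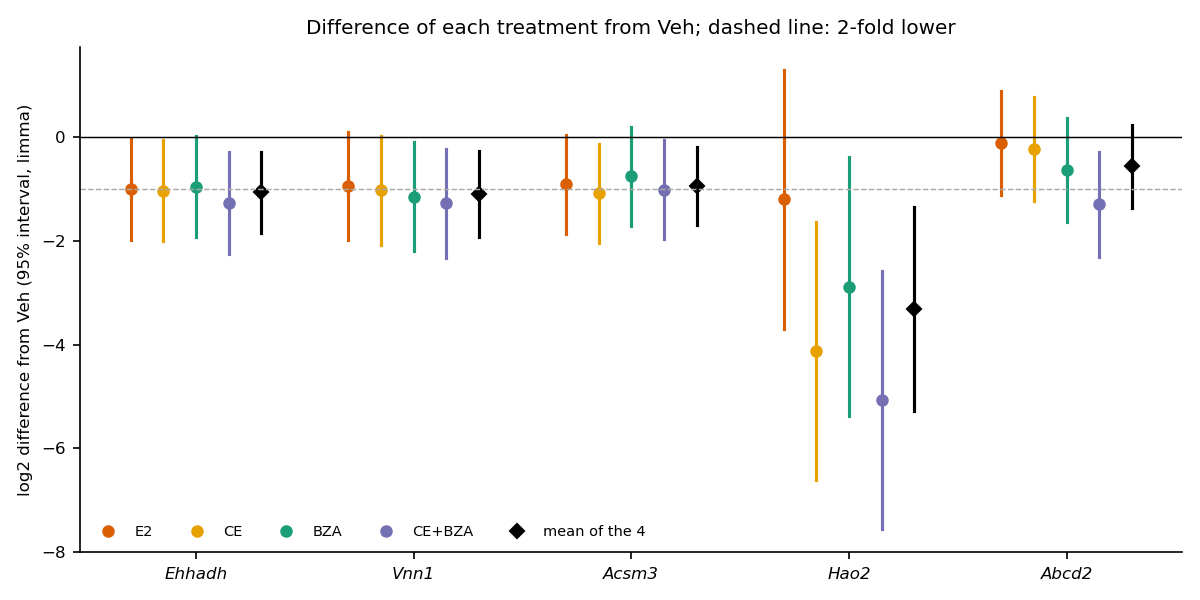
Log2 difference from Veh (vertical axis) with its 95% interval from limma for each gene (horizontal axis), where circles are the 4 treatments, diamonds are their mean and the dashed line marks 2-fold lower. Points sit near -1 for Ehhadh, Vnn1 and Acsm3 in every treatment, while those of Hao2 run from -1.20 for E2 to -5.07 for CE+BZA and those of Abcd2 from -0.11 to -1.30.

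With limma, 0 of the 5 members passed in E2, CE, BZA, CE+BZA or the mean of the 4 treatments, against 0.196%, 0.157%, 0%, 0.118% and 0.236% of all genes. Nor did any member pass with an ordinary linear model. At a fold change above 2 and an unadjusted p under 0.05, 1 member was lower in E2 (Ehhadh), where 8.61% of genes were. For CE it was 3 members (Ehhadh, Acsm3 and Hao2) against 8.45%. For BZA it was 2 (Vnn1 and Hao2) against 7.47%. For CE+BZA it was all 5 members against 9.55%, and for the mean of the 4 treatments it was 3 (Ehhadh, Vnn1 and Hao2) against 7.82%. These counts do not rank the treatments, as members are not replicates and some p values lay close to the threshold. Ehhadh, for example, had an unadjusted p of 0.0446 in E2 and 0.0547 in BZA (limma).

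The separation of mice was counted for each treatment as well. Every E2 mouse was below every Veh mouse for 3 members (12.4% of all genes). The same held of the CE mice for 4 members (12.3%), of the BZA mice for 4 (11.8%) and of the CE+BZA mice for 5 (13.7%). For 3 members, Ehhadh, Vnn1 and Acsm3, this held for all 12 treated mice, as it did for 2.32% of genes. The exact two-sided permutation test of 12 treated against 3 Veh mice gave p = 0.0044 for these 3 genes, the smallest value that 455 arrangements can give, reached by 3.58% of genes in either direction. After Benjamini-Hochberg adjustment over the table this was 0.123, and 0 genes of the table passed by that test. For Hao2 the exact permutation p was 0.00879 (0.132 adjusted), and for Abcd2 it was 0.158 (0.380 adjusted).

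Between treatments, the 6 pairs of E2, CE, BZA and CE+BZA were compared directly. With limma, 0 of the 5 members passed in any pair. Of all genes, 0.0393% passed for CE against E2, 0.275% for BZA against E2, 0.157% for CE+BZA against E2, 0% for BZA against CE, 0.0393% for CE+BZA against CE and 0% for CE+BZA against BZA. The Hao2 difference of CE+BZA from E2 was -3.87 ± 1.18 on the log2 scale (unadjusted p = 0.00449, FDR = 0.176, limma). It was -4.48 without CE+BZA 1 and -3.25 without CE+BZA 3, and -2.67 without CE 3, BZA 4, CE+BZA 2 and CE+BZA 3, the mice with high acute-phase transcripts described further on. The Hao2 difference of CE from E2 was -2.93 (FDR = 0.468, limma), or -1.18 without CE 3. The Abcd2 difference of CE+BZA was -1.19 ± 0.48 from E2 (FDR = 0.283, limma) and -1.07 from CE (FDR = 0.315, limma). These were the pairs with an unadjusted p under 0.05 among the members, which were 1 member for CE against E2 (9.12% of genes), 2 for CE+BZA against E2 (13.2%), 1 for CE+BZA against CE (14.5%) and 0 for BZA against E2 (11.2%), BZA against CE (11.4%) and CE+BZA against BZA (8.76%). For Ehhadh, Vnn1 and Acsm3, differences between treatments ran from -0.34 to 0.33, with 95% intervals reaching as far as -1.38 and 1.28, so that 2-fold differences between treatments lie within these intervals.

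When both agents were given, the log2 difference of CE+BZA from Veh was set against that of CE added to that of BZA. It fell short of this sum by 0.72 for Ehhadh, 0.90 for Vnn1, 0.81 for Acsm3 and 1.93 for Hao2 and exceeded it for Abcd2, at -0.44. None passed an FDR under 0.05 with limma (0.561 to 0.755), and 0 had an unadjusted p under 0.05. Of all genes 0.118% passed and 12.3% had such a p. The intervals were wide, from -0.67 to 2.10 for Ehhadh.

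The mice in which the 5 genes were low were in part the mice with high acute-phase transcripts. Acute-phase proteins are made by hepatocytes in inflammation, and 8 of 18 listed genes were in the table, a list drawn up after values were seen. Saa1, serum amyloid A, was at 4.84 in CE 3, 4.27 in BZA 4, 5.30 in CE+BZA 2 and 2.35 in CE+BZA 3, at -1.32 to 0.99 in the other 8 treated mice and at -1.62 to 0.72 in Veh. Saa2, Lcn2 and Orm2 separated the same 4 mice, with lowest values of 2.13, 2.44 and 2.37, from the other treated mice, at up to 1.58, 1.003 and 0.66. Serpina3n did so by a narrow margin (0.11 against 0.099), and Apcs, Itih4 and Il1rn overlapped. Saa1 and Saa2 share 31.5% and 30.0% of their 50-base stretches with other genes, mostly each other.

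In these 4 mice Hao2 was at -5.78 to -2.73, below its range of -2.02 to 1.59 in the other 8 treated mice. Ehhadh was at -0.80 to -0.42, against -0.35 to 0.23. For Abcd2 (-1.25 to -0.59 against -0.84 to 0.68), Acsm3 (-0.73 to 0.22 against -0.19 to 0.40) and Vnn1 (-0.72 to 0.09 against -1.29 to 0.21) the ranges overlapped. Without the 4 mice, which leaves 1 CE+BZA mouse assumed to vary like the other groups, the mean difference of the treatments from Veh was -2.37 for Hao2 (FDR = 0.174, limma), where it was -3.32 (FDR = 0.130, limma) with all mice. It was -0.85 against -1.07 with all mice for Ehhadh, -1.14 against -1.10 for Vnn1, -0.80 against -0.94 for Acsm3 and -0.36 against -0.57 for Abcd2. Of the 8 other treated mice, 7 were below every Veh mouse for Hao2 and 4 for Abcd2. For Ehhadh, Vnn1 and Acsm3 all 8 had to be, as all 12 treated mice were, so this count adds nothing. The share of all genes with such counts over the 8 mice was not computed.

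**Figure D3:**
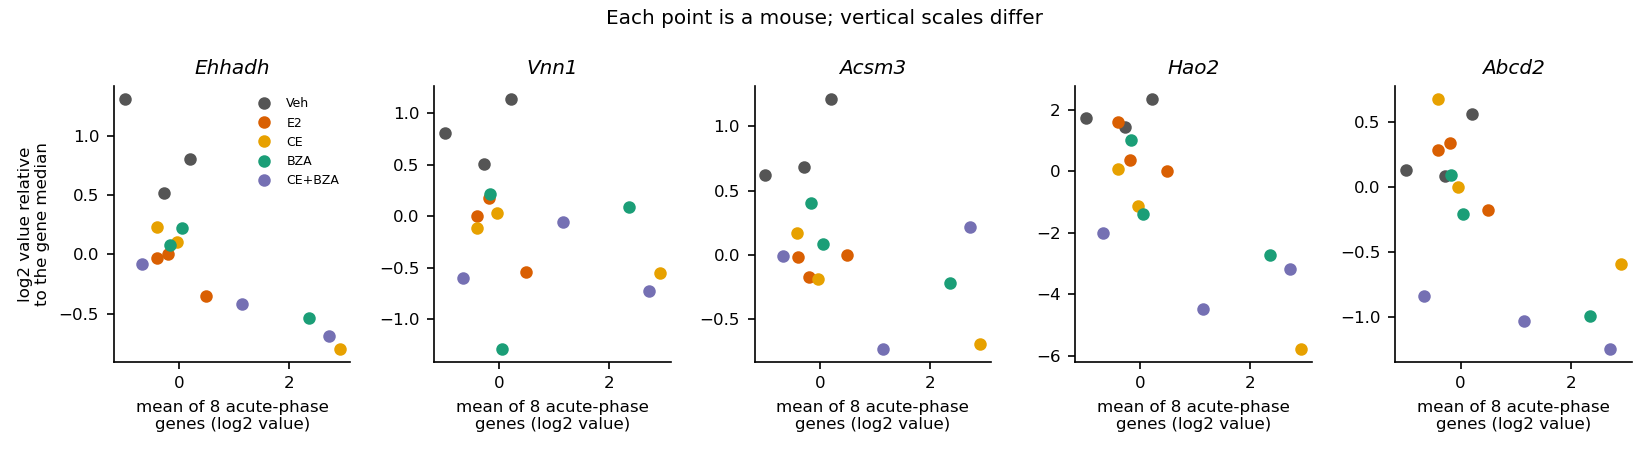
Log2 value of each of the 5 genes (vertical axes, own scales) against the mean log2 value of 8 acute-phase genes (horizontal axis), with each point a mouse coloured by group. The 4 mice with a mean above 1 are CE 3, BZA 4, CE+BZA 2 and CE+BZA 3, and they hold the 4 lowest values of Ehhadh and of Hao2.

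Over the 15 mice, which share the group differences, the members correlated with each other at Pearson r from 0.50 (Vnn1 and Abcd2) to 0.81 (Hao2 and Abcd2). With the group means removed, Hao2 and Abcd2 were at 0.85, Hao2 and Acsm3 at 0.79, Ehhadh and Abcd2 at 0.76 and Ehhadh and Hao2 at 0.74. Vnn1 had lower values, with 0.09 to Ehhadh, 0.01 to Acsm3, 0.24 to Abcd2 and 0.27 to Hao2. These include BZA 3, the liver with the most pancreatic and fat cell transcripts, where Vnn1 was at -1.29 and Ehhadh at 0.22. Correlations without that liver were not computed, so the low values may rest on it. These values describe the same 15 livers and were not tested.

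**Figure D4:**
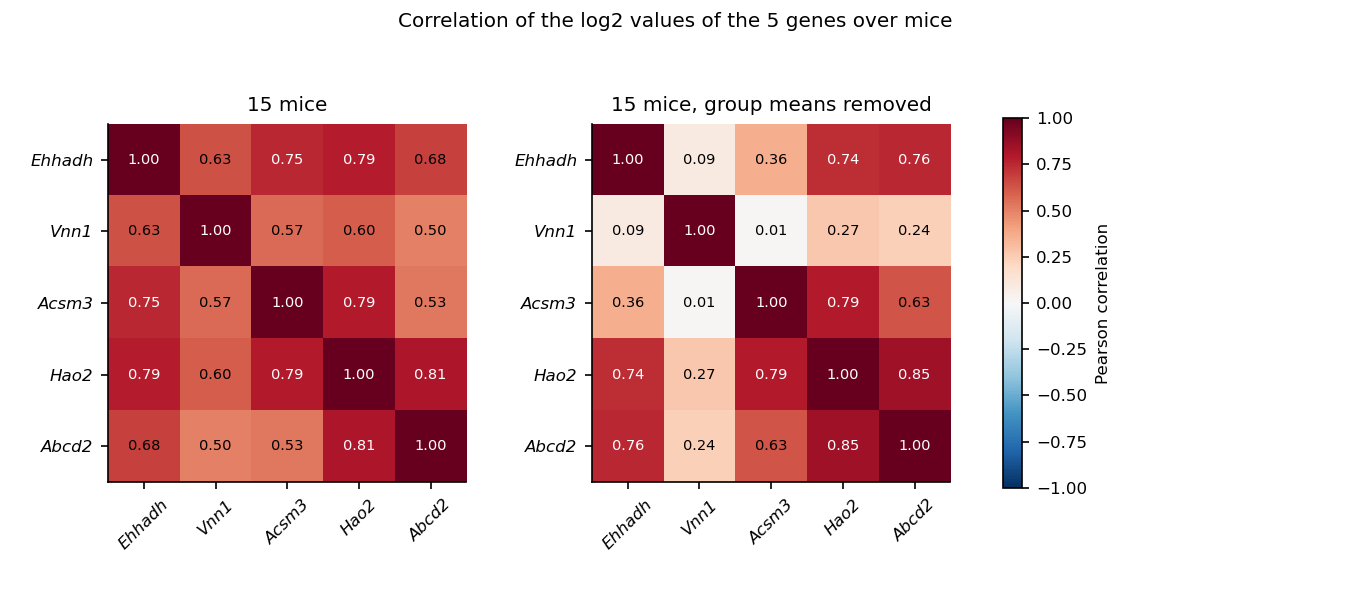
Pearson correlation between the log2 values of each pair of the 5 genes over the 15 mice (left) and after the mean of each group was removed (right), with the value written in each cell. Vnn1 is at 0.27 or below with the other 4 genes on the right, where Hao2 and Abcd2 are at 0.85.

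The genes of the table most like each member over the 15 mice were then listed by Pearson r. For Ehhadh they were Cyp4a10 (r = 0.90, rho = 0.81) and Cyp4a32 (0.89 and 0.83), microsomal hydroxylases of the fatty acid chain end, and the carboxylesterase Ces1e (0.89 and 0.84). Both Cyp4a genes are among close copies, with 29.8% and 43.8% of their 50-base stretches shared, mostly with each other. For Hao2 they were the cytochrome Cyp2a22 (r = 0.94, rho = 0.96), the succinate receptor Sucnr1 (0.83 and 0.79) and Impg2 (0.82 and 0.90). Cyp2a22 shares 20.2% of its 50-base stretches, all with Cyp2a12. It also led for Abcd2 (r = 0.90, rho = 0.86), followed by SNORD58 (0.85 and 0.81), in which 4 mice shared the lowest value, and by Hao2 itself. For Acsm3 they were Fancb (0.87 and 0.75), Ces1e (0.86 and 0.83) and Gm14391 (0.85 and 0.80), in which 35.8% of 50-base stretches are shared. For Vnn1 they were the major urinary protein pseudogenes Mup-ps2, Mup-ps16 and Mup-ps8 (r = 0.93, 0.93 and 0.87), whose sequence is shared with relatives over 89.7%, 89.3% and 100% of 50-base stretches, so that their rows are uncertain.

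Other genes of the pathway were taken from lists of known function, and the counts that follow leave out the 5 members, while some genes stand in more than 1 list. Of 58 PPAR-alpha target genes, 14 others were in the table. Of these, 12 were lower in the mean of the 4 treatments (45.1% of all genes were) and 6 were lower at an unadjusted p under 0.05 (9.90% of all genes), while 0 were higher at that level. Their median log2 difference was -0.92, where that of all genes was 0.29. The 6 lower at that level were Cyp4a10, Cyp4a14, Cyp4a31 and Cyp4a32, which are of 1 gene family, with Crot and Mogat1. Cyp4a10, Cyp4a31 and Cyp4a32 share 29.8%, 20.6% and 43.8% of their 50-base stretches with other genes, so these rows are not independent. By treatment, those lower at an unadjusted p under 0.05 numbered 2 for E2 (8.72% of all genes), 5 for CE (8.53%), 5 for BZA (7.58%) and 7 for CE+BZA (9.55%). In BZA, 1 gene of the list, Cidea, was higher at that level.

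One of them passed with limma, though not with every mouse left out in turn. Mogat1, a monoacylglycerol acyltransferase of triglyceride synthesis, fell in the mean of the 4 treatments by 2.43 on the log2 scale (FDR = 0.0170, limma). It fell by 2.76 under CE (FDR = 0.0352, limma), and all 12 treated mice were below the Veh mice (2.32% of all genes). For E2, BZA and CE+BZA its difference was -2.41, -2.18 and -2.37 (FDR = 0.0593, 0.172 and 0.0573, limma). The call of Mogat1 in the mean of the 4 treatments was lost without Veh 1 (FDR = 0.118), Veh 4 (0.0822) or Veh 7 (0.0808), without the 4 mice with high acute-phase transcripts (0.140), all with limma, and by the exact permutation test (0.123 adjusted). Its call in CE was lost in 8 of the 15 fits that left out 1 mouse, those without Veh 1, 4 or 7, E2 5, CE 3 or 6, or CE+BZA 1 or 2 (FDR up to 0.163, limma), without the 4 mice (0.160) and with only the 2 groups in the fit (0.142). Its log2 difference stayed between -2.52 and -2.33 in the mean, and between -3.13 and -2.49 in CE, with single mice left out. The fatty acid hydroxylases Cyp4a10 and Cyp4a14 were at -1.44 and -1.39 in the mean of the 4 treatments (FDR = 0.131 and 0.187, limma). Their relatives Cyp4a32 and Cyp4a31, the latter chosen after its values were seen, were at -1.30 and -1.22. The highest were the lipid droplet protein Cidea (0.38) and the hormone Fgf21 (0.01). For Cidea 11 mice shared the lowest value, and it was at 1.41 in BZA, the group with fat cell transcripts in BZA 3 and some in BZA 1.

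**Figure D5:**
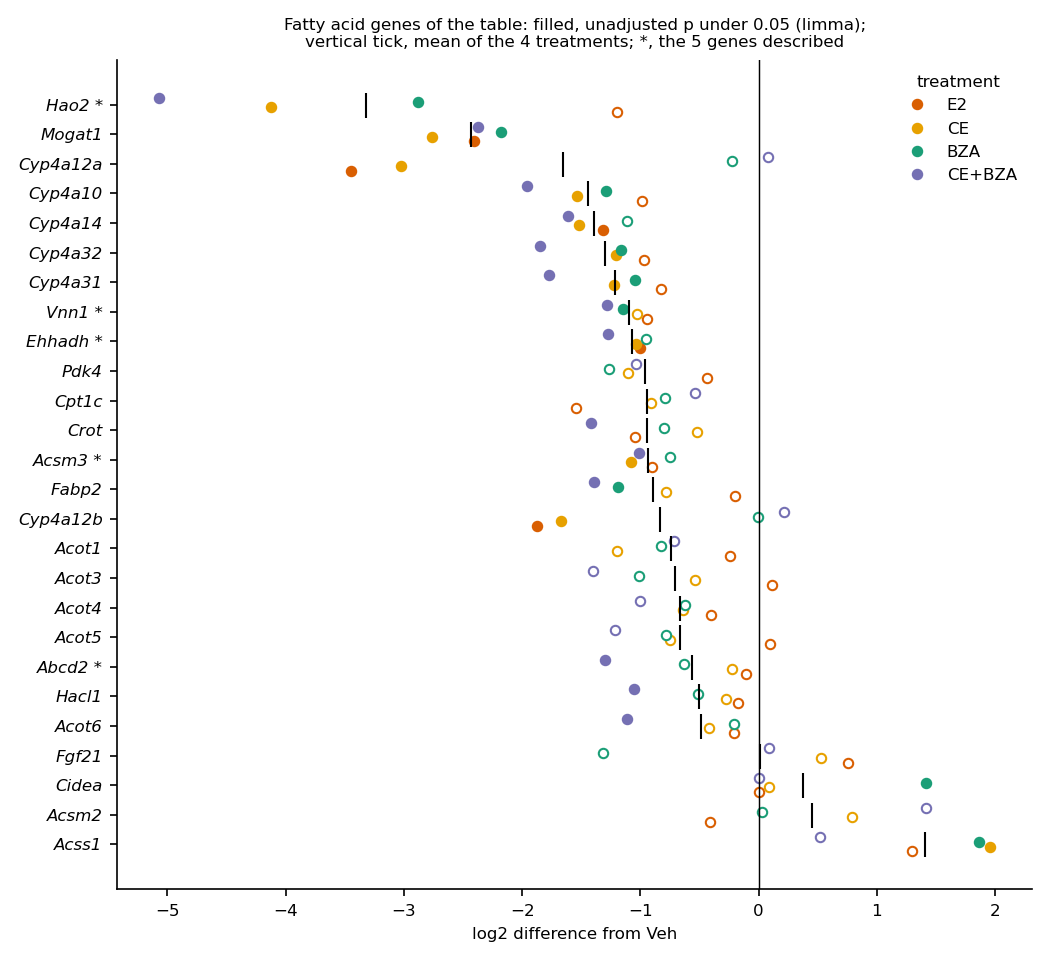
Log2 difference from Veh (horizontal axis) of the genes of 4 fatty acid lists found in the table (vertical axis, ordered by the mean of the 4 treatments, shown as a tick), with 1 point per treatment, filled where the unadjusted limma p was under 0.05, and asterisks at the 5 members. Most genes lie left of 0, and Cyp4a12a is apart with -3.45 for E2 and -3.02 for CE but -0.22 for BZA and 0.08 for CE+BZA.

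Of 79 peroxisomal proteins, 6 others were in the table. All 6 were lower in the mean of the 4 treatments (45.1% of all genes were), 1 of them at an unadjusted p under 0.05 (9.90% of all genes). Acot3, Acot4, Acot5 and Acot6 among them are of 1 gene family, so the rows need not be independent. Acot3, Acot4, Acot5 and Crot also stand in the PPAR-alpha list. In CE+BZA 3 of the 6 were lower at that level, and in E2, CE and BZA 0 were, where 9.55%, 8.72%, 8.53% and 7.58% of all genes were. That 1 gene was Crot, named after its values were seen, which makes fatty acids leave the peroxisome as carnitine esters, at -0.95 (FDR = 0.237, limma). The smallest differences were those of Hacl1, a lyase of peroxisomal alpha-oxidation (-0.50), and the thioesterase Acot6 (-0.49). Under CE+BZA, Hacl1 was at -1.05 and Acot6 at -1.11 (FDR = 0.218 and 0.220, limma). The count of 1 gene was 0 without Veh 1, 3 without Veh 7 and 2 without BZA 1, where 8.21%, 6.56% and 12.1% of all genes were lower at that level. Hacl1 shares 28.4% of its 50-base stretches with other genes. For Acot3, Acot4, Acot5 and Acot6 it was 19.1%, 4.53%, 22.1% and 3.77%.

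Of 45 genes of fatty acid activation and coenzyme A, 7 others were in the table. Of these, 5 were lower and 2 higher in the mean of the 4 treatments, 0 lower and 1 higher at an unadjusted p under 0.05. The 5 lower were Acot1, Acot3, Acot4, Acot5 and Acot6, of 1 gene family. All but Acot1 were already counted in the peroxisomal list, so the 2 counts are not separate. Over all genes, 45.1% were lower, and 9.90% were lower and 9.47% higher at that level. The acetyl-CoA synthetase Acss1 was at 1.41 (FDR = 0.235, limma). Acsm2, a relative of Acsm3, was at 0.46 (FDR = 0.557, limma). By treatment Acsm2 was at -0.41 for E2, the same way as Acsm3, and at 0.79 for CE, 0.03 for BZA and 1.41 for CE+BZA. With Veh 7 left out, 4 of the 7 were lower at that level, as were 6.56% of all genes in that fit.

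Of 33 genes of mitochondrial and microsomal fatty acid oxidation, 5 were in the table, which apart from Cpt1c were Cyp4a genes. All 5 were lower in the mean of the 4 treatments, as were 45.1% of all genes. At an unadjusted p under 0.05, 3 were lower (9.90% of all genes), Cyp4a10 and Cyp4a14, also on the PPAR-alpha list, and Cyp4a12a. In CE+BZA, 3 of the 5 were lower and 2 higher. Cyp4a12a and Cyp4a12b, hydroxylases known for higher levels in male liver and copies of each other over 48.9% and 49.4% of their 50-base stretches, did not follow the pattern of the 5 members. Cyp4a12a was at -3.45 for E2 and -3.02 for CE (FDR = 0.0863 and 0.145, limma) and at -0.22 for BZA and 0.08 for CE+BZA. The direct difference of CE+BZA from E2 was 3.53 (FDR = 0.0647, limma) and that from CE was 3.11 (FDR = 0.145, limma), neither of which passed. Cyp4a12b was at -1.88, -1.67, 0.00 and 0.22. In each of the Cyp4a12 genes 4 mice, all given E2 or CE, shared the lowest value, so the differences from Veh in those treatments depend on the value of that floor. Cpt1c, a carnitine palmitoyltransferase of the endoplasmic reticulum, was at -0.95 (FDR = 0.372, limma).

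Of 24 nuclear receptors and coregulators, 2 were in the table, and PPAR-alpha itself was not among them. Pparg, the receptor of fat storage, was at -1.03 in the mean of the 4 treatments (FDR = 0.187, limma). It was below the Veh mice in all 12 treated mice (2.32% of all genes). Lpin1, a phosphatidate phosphatase and coactivator of PPAR-alpha, was at 1.63 (FDR = 0.167, limma), with 2.32 under CE+BZA (FDR = 0.116, limma).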

How the data were processed

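The authors prepared mRNA libraries from the livers of 15 mice. After trimming, TopHat placed the reads on the mouse genome, gene expression came from StrandNGS with DESeq normalization, and the authors deposited log2 values centred on the median of every gene. The submitters' processing notes name CASAVA 1.8.2, TopHat2 0.5, and the builds mm10 and hg19 with no role. The labels describe a stranded kit read from each end and fewer mice sequenced per group, whereas the methods state single-end reads and 3 mice a group, the number listed. Depth per mouse is unknown.

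No pseudocount was added and no row removed. One linear model of the 5 groups was fitted to all 2545 rows (limma 3.58.1, functions lmFit and eBayes, R 4.3.3). The FDR is the Benjamini-Hochberg adjusted p over all rows, and passing required over 2-fold and FDR under 0.05 (FDR alone for CE and BZA against their sum). Differences are given with the SE from this fit. Mice are the replicates. The exact permutation test enumerated 455 arrangements. Python 3.11.15, numpy 2.4.6, pandas 2.3.3, scipy 1.17.1 and matplotlib 3.10.9 were used for the rest.

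The members and lists were chosen with earlier results of these data known. Named genes were the members, the 3 rows with the highest Pearson r to each, and from each pathway list every row that passed against Veh plus the 2 lowest and 2 highest mean differences. The acute-phase list and the omission of 4 mice were chosen after seeing the data. Alternatives were an unadjusted threshold, no fold threshold, quantile normalization, centring on the median of each mouse, leaving out rows at the floor, an ordinary linear model, a mean-variance trend, a replicate block, fits of only the groups compared and leaving out each mouse. Same-numbered mice were checked for shared deviations.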

Additional observations from a re-analysis of the deposited data

How the results depend on the processing

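Counting only the combinations of contrast and setting in which the value could move, 57 for each gene, the mean stayed below Veh in all 57 for Ehhadh, Vnn1, Acsm3 and Hao2 and in 52 for Abcd2. The exceptions were Abcd2 in E2 with quantile normalization (0.027), without Veh 7 (0.044) and without E2 3 (0.056), and in CE without CE 3 and without the 4 mice with high acute-phase genes (0.084 in both). With single mice left out, Abcd2 ran from -0.20 to 0.056 in E2 and from -0.55 to 0.084 in CE. The counts of members that passed changed from 0 in 3 settings besides the unadjusted threshold, each time through Hao2 in CE+BZA, which passed with quantile normalization (1 member), without rows at the floor (1 member) and with single mice left out (0 to 1). At an unadjusted p under 0.05 and a fold above 2 the members numbered 1 in E2, 3 in CE, 2 in BZA, 5 in CE+BZA and 3 in the mean of the 4 treatments, and 1 for CE against E2, 2 for CE+BZA against E2 and 1 for CE+BZA against CE. The cause of these changes was not tested.

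Counts over the whole table moved more. In E2, CE, BZA, CE+BZA and the mean of the 4, the genes that passed numbered 5, 4, 0, 3 and 6, and 385, 473, 417, 537 and 367 with the unadjusted threshold. With quantile normalization they were 10 in E2, 10 in CE, 15 in CE+BZA and 11 in the mean. Centring gave 7 in CE+BZA and 10 in the mean, leaving out rows at the floor 18 in E2, 8 in CE, 14 in CE+BZA and 26 in the mean, and the ordinary linear model 9, 13, 1, 13 and 10. The trend gave 5 in CE+BZA, and fits of the 2 groups alone 0 in E2, 0 in CE and 2 in BZA. Without the 4 mice they were 3, 0, 5, 1 and 0, and the permutation test passed 0. With single mice left out they ran from 1 to 6 in E2, 0 to 7 in CE, 0 to 4 in BZA, 0 to 10 in CE+BZA and 0 to 16 in the mean.

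The replicate numbers did not pair the mice, since the 13 same-numbered pairs had correlations of deviations from -0.049 to 0.098. With the number as a replicate block the genes that passed were 4 in E2, 3 in CE, 0 in BZA, 3 in CE+BZA and 6 in the mean, and 0 members passed. The depth behind the values is unknown, so precision rests on 3 mice a group.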
